A study of Mus musculus with 4 samples.

Results

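The tetraspanins are a family of small membrane proteins, and 31 of their genes were looked up by symbol among the transcript labels of a deposited list. It holds positions that the authors called as 5-methylcytosine in Tet2 knockout (KO) leukemia cells. The list is named as unique to the KO, so it need not hold every KO call. Of these 31 genes, 16 (51.6%) carried at least 1 listed position, where 34.2% of all protein-coding genes did. Together these 16 held 533 of the 506952 positions in the list. The cells are a cultured mouse acute myeloid leukemia line with NRAS and AE9a, a truncated AML1-ETO fusion; both groups carry these oncogenes and were grown with SCF, IL-3, IL-6, G418 and puromycin. The study made 2 libraries from WT cells and 2 from Tet2 KO cells, all of poly(A) RNA treated with bisulfite. Whether the replicates are separate cultures, and how the Tet2 KO was made, is not in the labels. The list holds 0 columns of WT values, so nothing below compares KO with WT and no test between groups was made. In bulk RNA, fewer expressing cells and less RNA per cell cannot be told apart.

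Tetraspanins cross the membrane several times and have a small and a large extracellular loop. They gather integrins, proteases, immune receptors and each other into membrane microdomains, and so take part in adhesion, migration, protein sorting and vesicle formation. In blood cells Cd37, Cd53, Cd81, Cd82 and Tspan32 are the members best known for roles in leukocytes. Tspan13, which the study followed, belongs to the same family. Tet2 is a dioxygenase that oxidises 5-methylcytosine, and bisulfite converts unmethylated cytosine but not 5-methylcytosine, so an unconverted base is read as methylated.

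The reference base under a listed position could be checked only where the position falls in a RefSeq promoter window of the same build (250 bases before to 50 after a gene start, GRCm38.p6). Over all genes, 5942 plus-strand listed positions fell in such windows, and the reference base was C at 51.9% of them, G at 30% and A at 18.1%, with T at 0. Without T, the windows themselves hold 34.9% C. For plus-strand positions called in both KO replicates the share on C was 68.6% of 847, and for the 144 minus-strand positions it was 90.3%. The median level was 0.7 on C and 0.636 on A or G (plus strand). A level at a plus-strand position below is therefore the authors' value for a listed position, and not in every case a value for a cytosine.

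Only 1 of the 533 tetraspanin positions fell in a window, and it is shown because it is the only member position whose base could be read. It lies in Cd151, at position 141468546 on the plus strand of chromosome 7, inside the gene and 243 bases before the start of another RefSeq transcript of the gene. In the 30 bases from chr7:141468539-141468568, the listed base is in capitals, at place 8 from the 5′ end.
Cd151: cttgagaGgtgagagctggtgcctgggcag
The listed base is a G. The authors' level there was 0.625, from 25 of 40 reads used (Wilson 95% interval 0.47 to 0.758) out of 47 covering reads, in 1 replicate. The bases under the other 532 positions were not analysed here.

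Tetraspanin genes on the plus strand carried nearly all of the family's sites. The whole list has the same split, with 502191 of its 506952 positions on the plus strand. Of 14 plus-strand members 9 had a site (64.3%), where 51.4% of all plus-strand protein-coding genes had at least 1. Of 15 minus-strand members 7 had a site (46.7%), where 18.5% of all minus-strand protein-coding genes had at least 1. Tspan18 and Upk1b, whose strand is not in the RefSeq promoter table, had 0 sites, where 31.5% of such protein-coding genes had at least 1. Over all strands the share of protein-coding genes with a site was 34.2%. The 9 plus-strand members held 524 sites with a median of 38 per gene, beside 71 for all plus-strand protein-coding genes with a site. The 7 minus-strand members held 9 sites with a median of 1, beside 1 for all minus-strand protein-coding genes with a site. Each of those 9 plus-strand genes had 5 or more sites. That is again 64.3% of the 14 plus-strand members, beside 49.8% of all plus-strand protein-coding genes. Of the 4485 plus-strand protein-coding genes with a site, 4351 had 5 or more. Among minus-strand members 0 had 5 or more, against 1.24% of minus-strand genes. Strand and gene are tied together here, so a low count in a minus-strand member is shared with most minus-strand genes in the list. A gene with 0 sites may lack reads, lack unconverted bases, or have them in WT as well, and the list does not tell these apart.

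**Figure D1:**
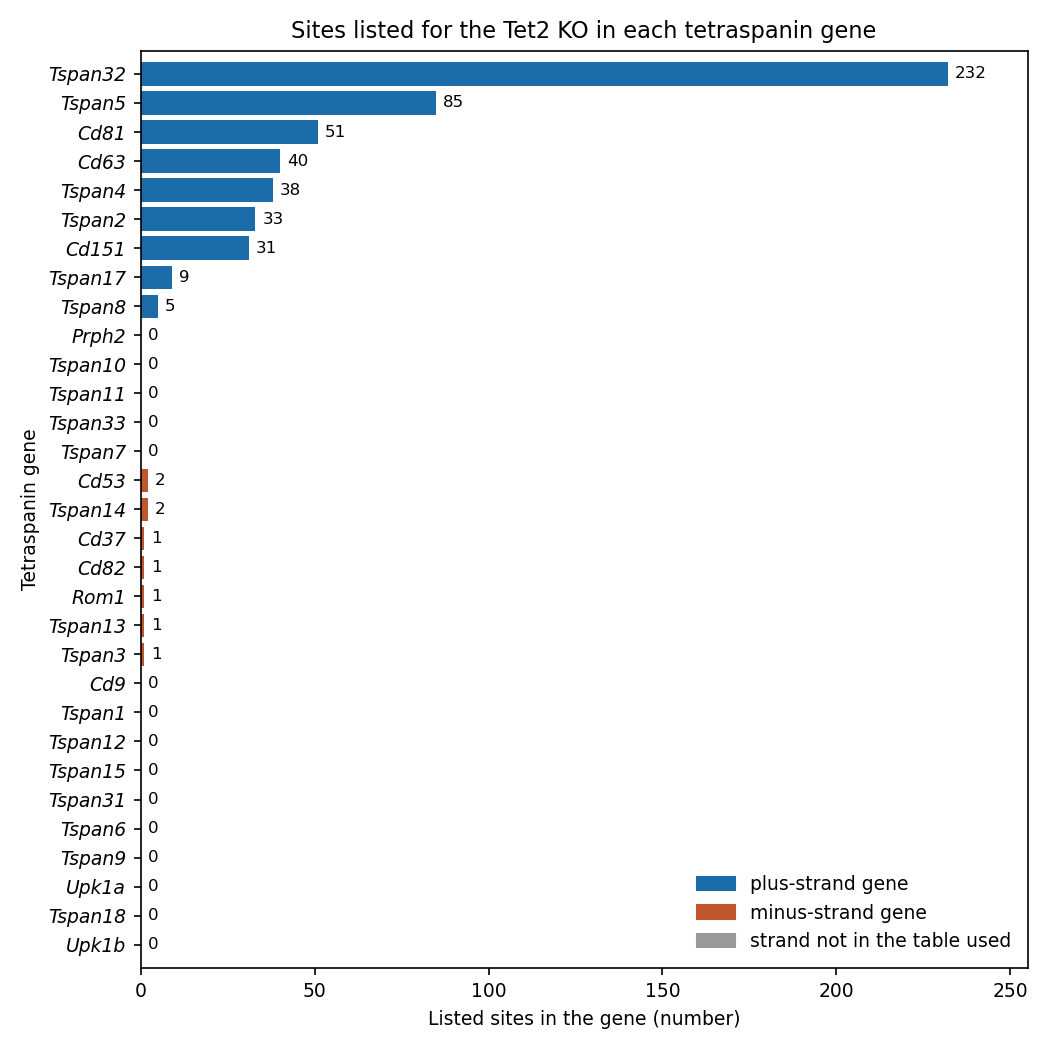
Number of listed sites (x axis) in each of the 31 tetraspanin genes (y axis), with bars coloured by gene strand and the number printed at the end of the bar. Tspan32 leads with 232 sites, 9 plus-strand genes have 5 or more, and minus-strand genes have 0, 1 or 2.

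Tspan13 had 1 site, on the minus strand at position 36015082 of chromosome 12, 527 bases inside the 3′ end of its gene span (36014555 to 36042478). It was unconverted in 2 of 10 reads used, out of 18 covering it, and was called in 1 replicate. This is the lowest level the list admits, 0.2, at the lowest number of reads used among member sites called in 1 replicate, 10. Over all 18 covering reads the unconverted share was 0.111. The other minus-strand members had levels in the same low range. Cd37, a leukocyte tetraspanin, had 1 site at 45233791 on chromosome 7 with 4 unconverted of 19 reads used (0.211, interval 0.0851 to 0.433). Cd53, a marker found across leukocytes, had sites at 106767557 and 106770095 on chromosome 3 with levels of 0.214 and 0.2. Cd82, known as a suppressor of metastasis, had 1 site at 93433890 on chromosome 2, and its 3 of 13 reads (0.231, interval 0.0818 to 0.503) gave the highest level among minus-strand members.

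Tspan14, which escorts the protease Adam10, had sites at 40907129 and 40907526 on chromosome 14, both in the last decile (10% of the length) of the gene span. The first had 4 of 18 reads (0.222) and the second 6 of 29 reads (0.207, interval 0.0985 to 0.384) out of 62 covering. Tspan3, a broadly expressed member, had 1 site at 56145838 on chromosome 9 with 3 of 14 reads (0.214) out of 39 covering. Rom1, a structural protein of photoreceptor discs, had 1 site at 8929187 on chromosome 19 with 2 of 10 reads (0.2). The 9 minus-strand sites thus ran from 0.2 to 0.231, 0 of them was called in both replicates, and 0 had another listed site within 10 nt. Their intervals overlap one another throughout, so no order among these genes can be read from the levels. Over all minus-strand protein-coding genes the median site level was 0.226, 8.37% of sites were called in both replicates and 26.5% had another site within 10 nt.

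Tspan32, a tetraspanin of blood cells also called Tssc6 or Phemx, held 43.5% of the family's sites. Its 232 sites lay between 143005744 and 143019408 on chromosome 7, in a gene span of 14580 bases (143004907 to 143019486), or 15.9 sites per kb. Among plus-strand protein-coding genes with sites, the median was 71 sites and 3 sites per kb (quartiles 1.32 and 6.54), and 186 of 4485 of them had at least as many sites as Tspan32. The level ran from 0.2 to 1 around a median of 0.545 (quartiles 0.4 and 0.726). Of the sites with 20 or more covering reads the highest, at 143011622, was unconverted in 18 of 19 reads used (0.947, interval 0.754 to 0.991). The most deeply covered site, at 143018824 with 74 reads, was called in both replicates at levels of 0.212 and 0.37 (mean 0.291 ± 0.112, SD, n = 2).

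Of the Tspan32 sites 22 were called in both replicates. Beside 143018824, those with the most reads were 143019013, at 0.273 in each replicate with 42 covering reads, and 143016443, at 0.643 and 0.667 with 36 covering reads (0.655 ± 0.017, SD, n = 2). At these 2 positions the replicates were close, whereas at 143007603, the least covered of the shared Tspan32 sites with 11 reads and chosen after its values were seen, they stood at 0.545 and 0.999, as computed from the rounded mean and SD. The sites formed 35 stretches with gaps of at most 100 nt. The largest stretch held 30 sites in 297 nt (143011501 to 143011797), with levels from 0.2 to 1. Tspan32 had sites in every decile of its span, 199 of 232 from the second to the eighth decile and 9 in the last decile. They were not evenly spread, with none between 143017273 and 143018824.

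Cd81, a leukocyte tetraspanin that joins the B cell coreceptor, lies 33.3 kb downstream of Tspan32 on the same strand. It had 51 sites between 143052861 and 143067792, 3.36 per kb, with a median level of 0.5 (quartiles 0.349 and 0.667). A stretch of 8 sites began 111 bases after the start of its gene span, with levels from 0.3 to 0.522, and 24 sites lay in the last 2 deciles. Its most covered site, at 143067792 with 69 reads, was called in both replicates at 0.4 and 0.7 (0.55 ± 0.212, SD, n = 2), although only 5 reads on average were unconverted. A site in the first stretch, at 143052928, stood at 0.462 and 0.582 in the replicates (0.522 ± 0.0849, SD, n = 2). Its highest level from 20 reads upwards, 0.8 at 143065102, rested on 8 of 10 reads (interval 0.49 to 0.943).

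Among the 6 members that escort Adam10 (the TspanC8 group), 3 had sites, where 34.2% of all protein-coding genes did. Tspan14 and Tspan15 are on the minus strand, where 18.5% of genes had a site. The others are on the plus strand, where 51.4% did. Tspan5 had 85 sites, between 138742311 and 138904338 on chromosome 3, in a span of 162586 bases. Of these, 13 lay in the first decile and 72 in the last decile of the gene, with 0 between. Its median level of 0.615 (quartiles 0.455 and 0.842) lay within the quartiles of Tspan32. The most covered site, at 138898298, had 35 of 55 reads (0.636, interval 0.504 to 0.751). Among sites with 20 or more reads the highest, at 138903497, had 11 of 11 reads (interval 0.741 to 1), with 22 covering. Of its sites 15 were called in both replicates, among them 138742426 near the 5′ end, at 0.817 and 0.929 (0.873 ± 0.0792, SD, n = 2), and 138903853 near the 3′ end, at 0.5 and 0.644 (0.572 ± 0.102, SD, n = 2). The 5′ stretch of 12 sites, 565 to 782 bases after the gene start, had a median level of 0.786.

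Tspan17 of the same group had 9 sites on chromosome 13 between 54789645 and 54796163, each called in 1 replicate and read by 10 to 21 reads. Their levels were 0.692, 0.3, 0.8, 0.7, 0.909, 0.8, 0.8, 0.412 and 0.8 from 5′ to 3′. The median of 0.8 was the highest of any member, but at a median of 10 reads used; the site with the most reads, at 54795972, was 0.412 (7 of 17 reads, interval 0.216 to 0.64). With Tspan14, the group held 96 sites. Tspan10, Tspan15 and Tspan33 had 0. Adam10 itself had 99 sites with a median level of 0.438.

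Cd63, a tetraspanin of late endosomes and secreted vesicles, had 40 sites on chromosome 10 between 128908924 and 128912750. All of them lay in the last 3 deciles of the gene span, which begins at 128896231. The median level was 0.575 (quartiles 0.455 and 0.79). Its densest stretch held 14 sites in 44 nt (128909908 to 128909951), so that 31.8% of the positions there were listed, with levels from 0.308 to 1. The site at 128909943 in this stretch was unconverted in 25 of 25 reads used (interval 0.867 to 1), with 29 covering, while its neighbour at 128909944 stood at 0.647 (11 of 17). None of those 14 sites was called in both replicates. The most covered site of the gene, at 128912175, had 35 of 40 reads (0.875, interval 0.739 to 0.945). Its 3 shared sites, at 128908958, 128910400 and 128910665, had mean levels of 0.651, 0.58 and 0.325 with SDs of 0.0226, 0.158 and 0.106 (n = 2).

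Cd151, which binds laminin-binding integrins, and Tspan4, a component of migrasomes, are neighbours on chromosome 7, 3.75 kb apart. Cd151 had 31 sites in a span of 4120 bases, 7.52 per kb, with a median level of 0.52, and 0 of them was called in both replicates. Its most covered site, at 141468532 with 61 reads, was unconverted in 24 of 49 reads used (0.49, interval 0.356 to 0.625), 14 bases before the G described above. Its highest level from 20 reads upwards, 0.909 at 141469946, rested on 10 of 11 reads (interval 0.623 to 0.984). Tspan4 had 38 sites, 2.09 per kb, with a median level of 0.562, and 7 were called in both replicates. The most covered of all member sites was its 141492977, with 90 reads and levels of 0.243 and 0.451 (0.347 ± 0.147, SD, n = 2). At 141491610 the replicates stood at 0.455 and 0.543 (0.499 ± 0.0622, SD, n = 2). Among member sites called in 1 replicate, that with the most reads used, at 141493113 in Tspan4, had 38 of 71 reads unconverted (level 0.535). The highest in Tspan4 from 20 covering reads upwards, at 141493241, had 12 of 12 reads (interval 0.758 to 1) of the 29 covering it.

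Tspan2, best known from oligodendrocytes and neurons, had 33 sites on chromosome 3 with a median level of 0.538. They fell in 6 stretches, the largest with 12 sites in 43 nt (102769765 to 102769807), where levels ran from 0.2 to 1 at 12 to 15 covering reads. Its most covered site, at 102759327 with 32 reads, was called in both replicates at 0.259 and 0.307 (0.283 ± 0.0339, SD, n = 2). The highest from 20 reads upwards, at 102757321, had 14 of 14 reads (interval 0.785 to 1). Tspan8, a tetraspanin of epithelia and their tumours, had 5 sites on chromosome 10 with levels of 0.364, 0.6, 0.545, 0.516 and 0.3 at 10 to 13 covering reads. The site called in both replicates, at 115839959, stood at 0.333 and 0.699 (0.516 ± 0.259, SD, n = 2), which spans the level of each of the others but 0.3.

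Markers of other cell types were also in the list, in which 34.2% of all protein-coding genes had a site, 51.4% on the plus and 18.5% on the minus strand. Of 8 markers of myeloid leukemia cells 6 had sites, including Mpo with 217 and Kit with 106, and of 5 B cell markers 0 had. Of the 3 myeloid markers on the minus strand Cd33 had 3 sites and Ctsg and Ptprc had 0. Of 5 T and NK cell markers only Nkg7 had sites (56), and of 4 megakaryocyte markers only Pf4 (17). Of 4 epithelial markers Cdh1 and Epcam had 110 and 33, and Krt8 and Krt18 had 0. The pancreatic hormone genes Gcg, Ins2, Ins1 and Iapp had 228, 139, 112 and 78. Gcg is on the minus strand, and unlike the minus-strand members it had a median level of 0.554. Of its 228 sites 142 were called in both replicates. Of 3 retinal markers 0 had a site. Tspan8, 2 of the 4 epithelial markers and all 4 pancreatic markers were in the same list, which pools the 2 KO libraries. Which library gave a site called in 1 replicate is not given. Rom1 was listed without the retinal markers. The part of other cells in the sites of Tspan8 and Rom1 was not tested.

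Of the 15 members with 0 sites, Tspan7, Tspan10, Tspan11, Tspan33 and Prph2 are on the plus strand and Cd9, Tspan1, Tspan6, Tspan9, Tspan12, Tspan15, Tspan31 and Upk1a on the minus strand. Cd9, a partner of integrins, had 2 unlabelled listed positions on the other strand inside its span. Tspan31 had 9 such positions, labelled with the uncharacterised gene LOC100504703, between 127070594 and 127070938 on chromosome 10. These 11 are the only listed positions in a member's span without that member's label, and 0 of the 533 member positions carried the label of a second gene. The urothelial plaque genes Upk1a and Upk1b both had 0 sites.

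**Figure D2:**
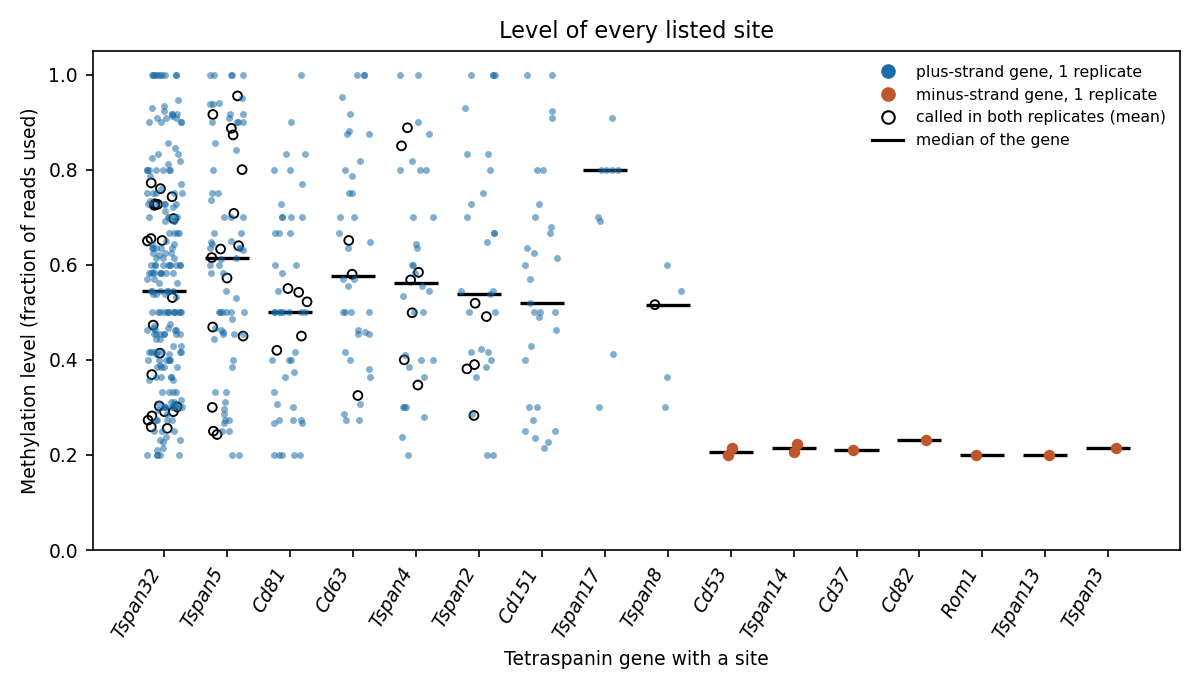
Methylation level of each listed site (y axis, fraction of reads used) by gene (x axis), with 1 point per site, open circles for sites called in both replicates and a line at the median of the gene. Plus-strand genes spread from 0.2 to 1 with medians of 0.5 to 0.8, and the 9 minus-strand sites lie between 0.2 and 0.231.

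Gene medians of the plus-strand members ran from 0.5 in Cd81 through 0.516 in Tspan8, 0.52 in Cd151, 0.538 in Tspan2, 0.545 in Tspan32, 0.562 in Tspan4, 0.575 in Cd63 and 0.615 in Tspan5 to 0.8 in Tspan17. No difference between members was tested, since sites of a gene are not replicates. The median of Tspan17 rests on 9 sites and that of Tspan8 on 5. Over the 524 plus-strand member sites the median was 0.556 (quartiles 0.4 and 0.727), beside 0.529 (0.368 and 0.7) over all plus-strand protein-coding genes. In 27 member sites every read used was unconverted, 10 of them in Tspan32. By coverage, the plus-strand median level was 0.583 at 10 to 14 covering reads (187 sites) and 0.499 at 30 to 90 reads (53 sites). The fall was not steady, since plus-strand sites with 50 or more covering reads had a median of 0.54 (16 sites).

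The authors' level does not rest on all covering reads. At member sites called in 1 replicate, a median of 82.8% of the covering reads was used, all reads were used at 42 of 475 sites and fewer than 50% at 37. Unconverted reads over all covering reads had a median of 0.417 in the family, against 0.545 for the level. Counted this way, 62 of the 524 plus-strand sites and 8 of the 9 minus-strand sites fell below 0.2, the exception being that of Cd82. In Tspan5, neighbouring sites at 138903880 and 138903884 had 52 covering reads each, and levels of 0.917 (11 of 12) and 0.5 (7 of 14). Over all covering reads these are 0.212 and 0.135. Among 52 pairs of sites within 10 nt with equal coverage, each called in 1 replicate, the levels differed by a median of 0.191. Whether both sites of such a pair came from the same replicate is not given.

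**Figure D3:**
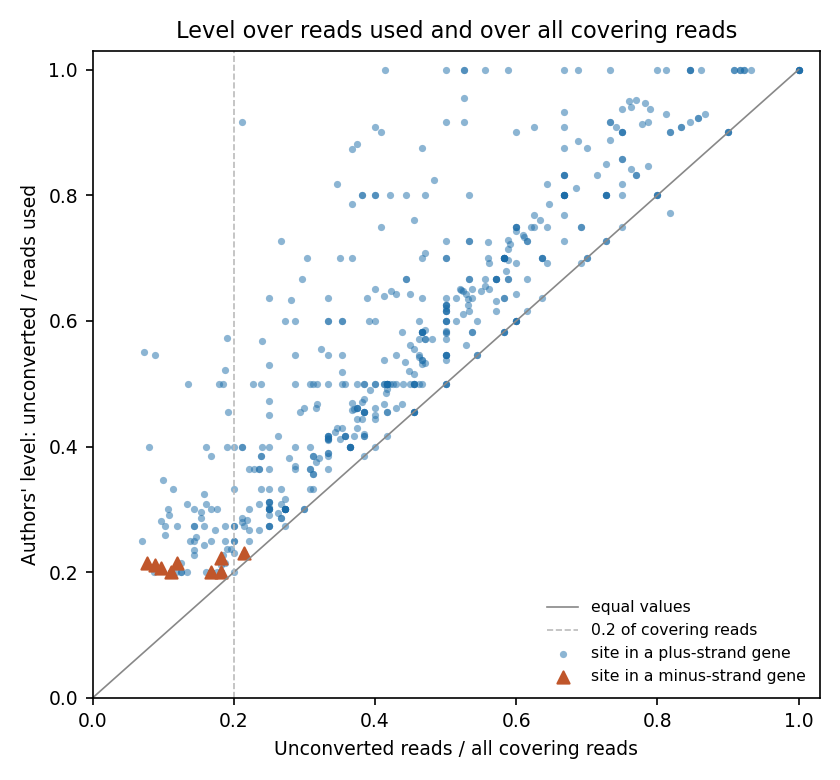
The authors' level (y axis) against unconverted reads over all covering reads (x axis), with 1 point per member site, a solid line at equal values and a dashed line at 0.2. Most points lie above the line, and 8 of the 9 minus-strand triangles lie left of 0.2.

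A call in both KO replicates was listed for 58 of the 533 sites (10.9%, exact 95% interval 8.37 to 13.8), in 7 genes, with 22 in Tspan32 and 15 in Tspan5. The interval treats sites as independent, but nearby sites share reads, so it is too narrow to set against other genes. All 58 were on the plus strand, where they were 11.1% of the 524 member sites. Over all plus-strand protein-coding genes 14.3% of sites were called in both, and the difference was not tested. The share was 18.4% in Tspan4 and 17.6% in Tspan5, and 1 of 5 sites in Tspan8, while Cd151, with 31 sites, had 0. At the shared sites the 2 levels differed by a median of 0.1, by more than 0.2 at 9 sites and by 0 at 3. Sites called once had a median level of 0.567 on the plus strand and shared sites 0.526. Sites enter only if both replicates passed the authors' filter, so these differences do not measure the full spread between replicates.

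**Figure D4:**
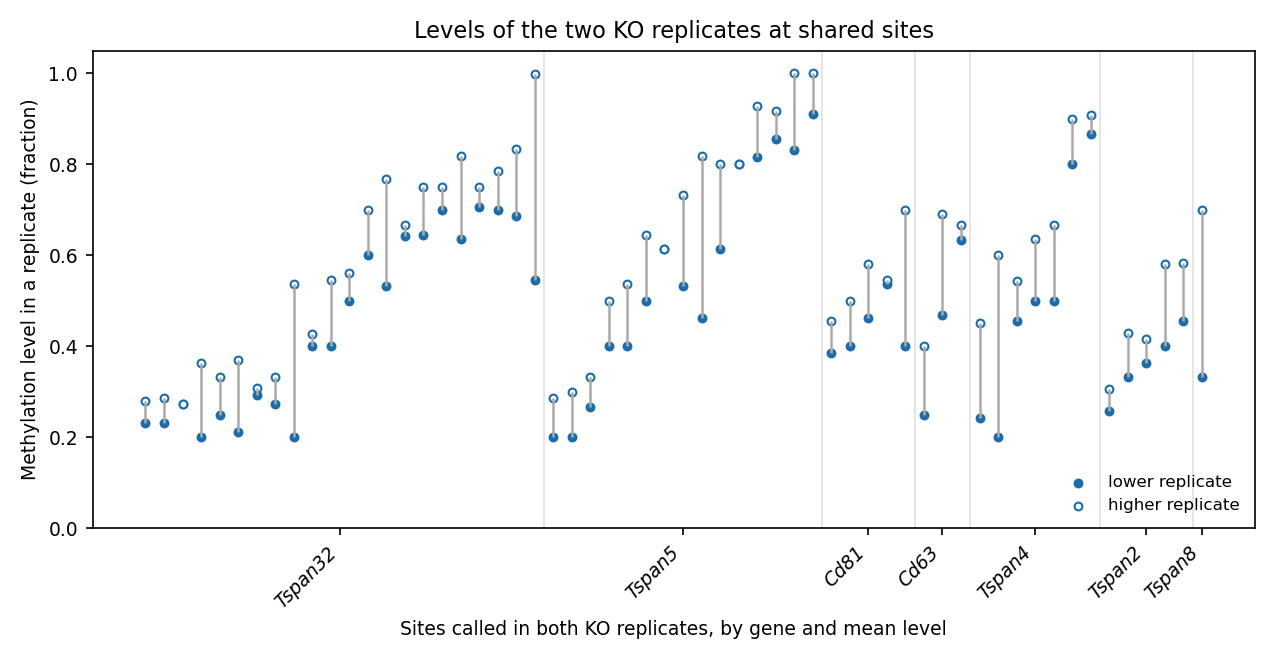
Levels in both KO replicates (y axis) at the 58 shared sites, ordered by gene and mean level (x axis), with a filled point for the lower replicate, an open point for the higher and a line between them. The gap exceeds 0.2 at 9 sites, and which library is the lower one is not given.

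Sites were unevenly placed along the genes. The last decile of the span held 26.7% of the plus-strand member sites, and 44.9% without Tspan32, beside 29.1% over all plus-strand protein-coding genes. Tspan5 holds 72 of those 131 sites, and without Tspan32 and Tspan5 the share was 28.5% of 207 sites. The first decile held 5.73%, or 8.56% without Tspan32, beside 8.2%. Of the 524 plus-strand sites 353 (67.4%) had another listed site within 10 nt, where 70.4% did over all plus-strand genes, and 79 had one at the very next base. In 35 stretches of 5 or more sites lay 343 of the sites, over a median width of 100 nt. Sites in a stretch share reads and are not independent. The longest run of consecutive listed bases was 4, in Tspan2 (102769789 to 102769792), with levels from 0.2 to 0.538. Exons, introns and read coverage along the genes were not analysed here.

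**Figure D5:**
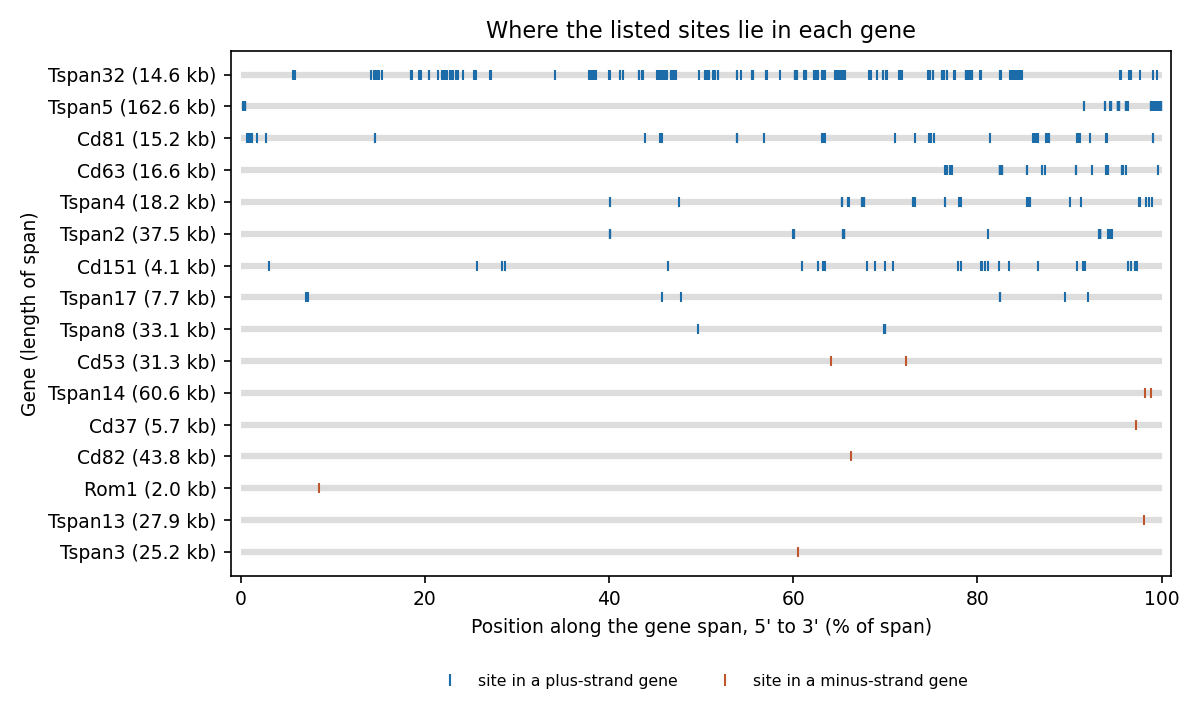
Position of each listed site along the RefSeq span of its gene from 5′ to 3′ (x axis, % of span), with 1 row per gene and its length in kb. Sites lie in every decile of Tspan32, stand at both ends of Tspan5 (13 and 72 sites), and lie in the last 3 deciles of Cd63.

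Genes of tetraspanin partners were looked up in the same list. Of 24 genes that encode partners or other proteins of tetraspanin-rich membranes and vesicles, 15 had sites, where 34.2% of all protein-coding genes did. All 8 placed on the plus strand had sites, where 51.4% of all plus-strand genes did, with a median of 102 per gene beside 71 for all plus-strand genes with sites, among them Itga4 with 191 and Igsf8, which binds Cd9 and Cd81, with 91 (median levels 0.5 and 0.625). Of 10 on the minus strand 2 had sites, near the 18.5% of all minus-strand genes: Adam17 with 4 and Notch1 with 1. Cxcr4, Cd44 and the vesicle genes Tsg101 and Pdcd6ip, all on the minus strand, had 0. Strand is not in the table used for the other 6, of which 5 had sites, Itgal with 355. Of all protein-coding genes without a given strand 31.5% had a site.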

How the data were processed

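Bisulfite sequencing of poly(A) RNA was done in 2 WT and 2 Tet2 KO libraries, per the labels. The list used here holds positions named as unique to the KO. The build is mm10, per the submitters' processing notes; aligner and caller: not given in the sources used here. Covering and unconverted reads, as deposited by the authors, are not normalized and were treated as a score, since they are rounded means where both replicates made a call. The deposited level is a fraction, unconverted reads over reads used. The authors' combined p-values reached 0.000114 (state) and 0.0773 (rate) at member sites. Coverage at member sites was 10 to 90 reads (median 16). Library totals were not used here, and columns of other series numbered 0.

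Sites were assigned by comma-split labels; of 7822 labels 7806 matched RefSeq (GRCm38.p6), whose promoter table gave the strand of 29 of the 31 members. Reads used were computed as unconverted reads over the level. The authors' SD was taken with divisor n: at 12718 shared sites with up to 14 reads this gave whole reads in both replicates in 82.1% of cases, against 12.6% with divisor n - 1 (tolerance 0.0012), and was rescaled to the sample SD for printing. Wilson and exact intervals (95%) cover counting error only. Steps were tested on simulated data. Members with a site are named, with their highest site at 20 or more reads, their most covered site and up to 3 shared sites of highest coverage, not all of which are printed; other sites named were chosen after their values were seen. Members and lists were chosen with earlier results of these data known. Python 3.11.15, pandas 2.3.3, scipy 1.17.1 and matplotlib 3.10.9 were used.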

Additional observations from a re-analysis of the deposited data

How the results depend on the processing

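No paired analysis was possible because the table holds no WT values and no values per named library; for the same reason no KO replicate could be left out in turn. From 16 genes, 533 sites, a median level of 0.545 and 10.9% of sites called in both replicates, a minimum of 20 covering reads left 171 sites; 30 reads left 10 genes, 56 sites and 25% in both; 50 reads left 7 genes, 17 sites and 17.6% in both. A minimum of 20 reads used left 8 genes and 55 sites. Sites called in both replicates were 58 in 7 genes, 0 of them on the minus strand. Sites with no other listed site within 10 nt numbered 180, in 16 genes. With both combined p-values at or below 0.001 there were 243 sites with a median level of 0.385 and 22.6% in both. This setting kept all 9 minus-strand sites. The authors' combined rate p was 0.0001 at the Rom1 site (2 of 10 reads) and 0.00195 at 128909943 in Cd63 (25 of 25), which was left out. Counting a gene from 5 sites left 9 of the 31 members, where 24.9% of all protein-coding genes had 5 or more. The share of all genes under the minimum read settings was not analysed here. Alternatives added after the data were examined were the family without Tspan32, with 301 sites and the same median level of 0.545, and unconverted reads over all covering reads, with a median of 0.417. The minus-strand median of the authors' level stayed between 0.207 and 0.214 in the settings that kept any such site. The value of 0.207 rests on 1 site. Over all covering reads the minus-strand median was 0.12. The plus-strand median ran from 0.385 to 0.583. The cause of these shifts in level was not tested.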

Other observations

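The reference base under listed positions was also counted in subsets of the promoter windows, over all genes. In the first 50 bases of the gene named in the label, 49.7% of 1075 plus-strand positions were on C. With 20 or more covering reads the plus-strand share on C was 62.3% of 2209 positions, and the minus-strand share was 94.1% of 102. No member position other than that in Cd151 entered these counts.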
